A study of Drosophila melanogaster with 2 samples.

Results

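Mitochondrial ribosomal protein genes were taken as the protein-coding genes whose symbol starts with mRpL (large subunit) or mRpS (small subunit), which gave 73 of the 13945 protein-coding genes annotated on the major Drosophila melanogaster chromosome arms. There were 47 mRpL and 26 mRpS genes. The study used chromatin immunoprecipitation followed by sequencing (ChIP-seq) to map the transcription factor Fer1 in whole embryos of mixed sex, aged 6 to 24 h. The samples were 2 biological replicates of 1 group, both from 1 transgenic line, stably expressing Fer1 with GFP fused to its C terminus, and an antibody against GFP recovered the fusion. No untagged or control library was among the samples, so each value below describes peaks in this line, and no condition could be compared with another. The genes were chosen by symbol, but the set itself was selected on the presence of thresholded summits near their starts and on their pooled ranks, from these same peak lists. Its peak counts and ranks are therefore given as descriptions, with no test, and the share over all protein-coding genes stands beside them.

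Fer1, a relative of mammalian PTF1A, belongs to the basic helix-loop-helix (bHLH) class of transcription factors, whose dimers recognise E-boxes, written CANNTG. The mitochondrial ribosome is a separate ribosome inside the organelle that translates the few proteins encoded by mitochondrial DNA, nearly all of them subunits of the respiratory chain. Its RNA is made in the mitochondrion, whereas its proteins are encoded in the nucleus, translated in the cytoplasm and imported. Some of these proteins have counterparts in the bacterial ribosome and carry the bacterial number, and others were added during the evolution of mitochondria. Embryos were collected whole, so a peak cannot be assigned to a cell type, and a peak in few cells cannot be told apart from a weaker peak in many.

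Peaks lay at the start sites of just over 50% of the set. Of the 73 genes, 38 (52.1%; 95% Clopper-Pearson interval 40.0 to 63.9) had a summit of the authors' reproducible peak list within 1 kb of a transcription start site (TSS), against 33.1% of all protein-coding genes. This list holds the 7329 peaks that passed the authors' reproducibility threshold (irreproducible discovery rate, IDR), here called thresholded peaks. Within 200 bp of a TSS, 31 of the 73 genes (42.5%) had a thresholded summit, against 23.3% of all protein-coding genes. In the longer pooled list of 30000 peaks, 61 of the 73 (83.6%) had a summit within 1 kb, against 54.4% of all protein-coding genes. The remaining 12 genes had no summit there at all in the pooled list. Intervals cover the counting of genes only, and genes that share a start region are not independent.

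Both replicates gave nearly the same count. Among the 7329 highest peaks of replicate 1, 39 of the 73 genes had a summit within 1 kb, against 32.9% of all protein-coding genes. Replicate 2 also gave 39 of 73, against 33.6% of all protein-coding genes. A summit in the thresholded list and in the highest peaks of both replicates was found at 36 of 73 genes, against 28.1% of all protein-coding genes.

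Subunits of the large and small particle were marked at close shares. Of the mRpL genes, 25 of 47 (53.2%; interval 38.1 to 67.9) had a thresholded summit within 1 kb, and of the mRpS genes 13 of 26 (50%; interval 29.9 to 70.1). Genes with a number of the bacterial series (up to 36 for mRpL and 21 for mRpS) had one at 24 of 42 (57.1%; interval 41.0 to 72.3), and the others at 14 of 31 (45.2%; interval 27.3 to 64.0). The lowest share was that of mRpS genes without a bacterial number, with 4 of 12 (33.3%; interval 9.93 to 65.1). That share was near the 33.1% of all protein-coding genes, and the differences between these groups of members were not tested. The genes tko and bonsai, which encode mitochondrial small subunit proteins but fall outside the symbol rule, had no pooled summit within 1 kb.

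**Figure D1:**
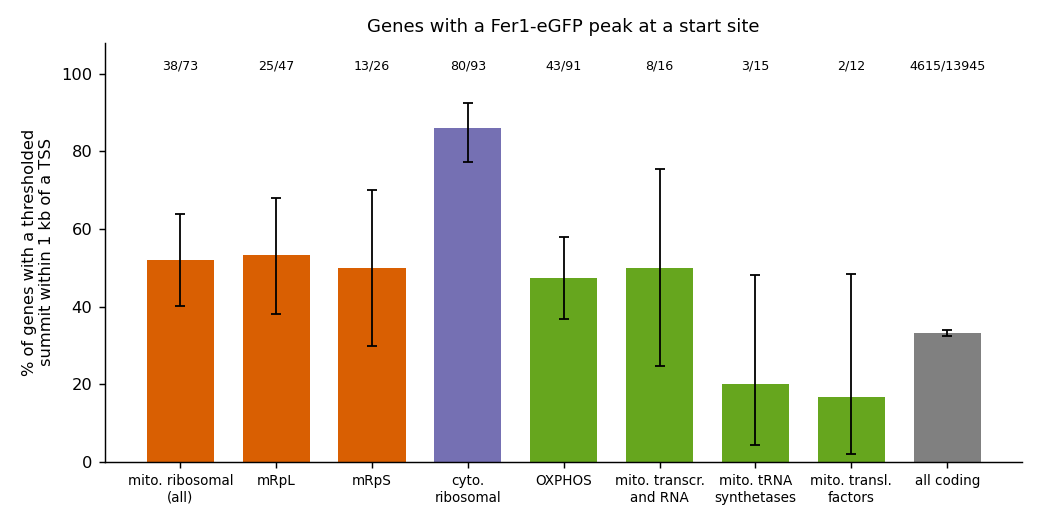
Share of genes in percent (vertical axis) whose TSS had a thresholded summit within 1 kb, for the mitochondrial ribosomal protein genes, their mRpL and mRpS members, 5 lists of related genes and all protein-coding genes. Bars are shares, whiskers 95% Clopper-Pearson intervals, and the figures on top genes with a summit over genes in the list: 38 of 73 mitochondrial ribosomal protein genes stand between 80 of 93 cytoplasmic ribosomal protein genes and 33.1% of all genes.

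The genes were ranked by the signal value that the authors gave each pooled peak, where rank 1 is the strongest of 30000. The strongest peak of the set lay 140 bp upstream of mRpL41 (FBgn0034001), with a signal of 2266 and rank 11. In the single lists its signal was 1292 in replicate 1 (rank 14) and 973.3 in replicate 2 (rank 10). No other protein-coding start was nearer to this summit. Signal values differ in scale between the lists, so only ranks can be set side by side, and by rank mRpL41 was among the strongest peaks of each replicate.

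The peak at mRpS23 (FBgn0260407) had a pooled signal of 1952 and rank 26. It reached 1101 in replicate 1 (rank 32) and 840.4 in replicate 2 (rank 20). Its summit lay 402 bp upstream of mRpS23 but 90 bp from the start of the neighbouring CenG1A, so it stood closer to CenG1A. At mRpS10 (FBgn0038307), whose bacterial counterpart sits in the head of the small subunit, the pooled signal was 1811 (rank 36). Replicate 1 gave 1110 (rank 30) and replicate 2 gave 706.6 (rank 41). This summit was 133 bp upstream of mRpS10 and 124 bp from Art3, an arginine methyltransferase gene. The start regions of mRpL23 and mRpL24 came next. The gene mRpL23 (FBgn0035335), whose bacterial counterpart lines the exit of the peptide tunnel, had a pooled signal of 1219 (rank 113), with 760.0 in replicate 1 (rank 106) and 458.1 in replicate 2 (rank 136). Its summit was the only one of these 6 that lay downstream of the member's TSS, by 70 bp, in the 5′ UTR.

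At mRpL24 (FBgn0031651), whose bacterial counterpart acts early in assembly of the large subunit, the pooled signal was 782.0 (rank 299). It was 475.3 in replicate 1 (rank 285) and 313.6 in replicate 2 (rank 309). At mRpS2 (FBgn0031639) the pooled signal was 777.5 (rank 302), with 457.2 in replicate 1 (rank 308) and 320.8 in replicate 2 (rank 294). Both summits lay between 2 genes: 118 bp from mRpL24 and 100 bp from betaggt-I, and 136 bp from mRpS2 and 86 bp from Mon1. After these 6 genes the signal dropped, with the next member, mRpL20, at 394.4 (rank 1059).

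The sequence around 5 strong summits that lay between genes is shown because bHLH proteins are known for the E-box. The window of mRpL41, which also lay between genes, is not shown, since sequence from its chromosome arm was left out here, and that of mRpL23 lay in a 5′ UTR. Each line is the window from 50 bp before to 50 bp after the summit, on the plus strand of Release 6 of the genome (dm6), with CANNTG or TGCGCA matches in capitals. The windows are chr2L:13835424-13835524 for mRpS23, chr3R:15229482-15229582 for mRpS10, chr2L:4945429-4945529 for mRpL24, chr2L:4850505-4850605 for mRpS2 and chr3L:13018105-13018205 for mRpL20.
mRpS23: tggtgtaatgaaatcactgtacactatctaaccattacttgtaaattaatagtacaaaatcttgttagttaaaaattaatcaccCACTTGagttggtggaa
mRpS10: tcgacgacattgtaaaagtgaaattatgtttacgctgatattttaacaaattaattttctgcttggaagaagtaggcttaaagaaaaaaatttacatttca
mRpL24: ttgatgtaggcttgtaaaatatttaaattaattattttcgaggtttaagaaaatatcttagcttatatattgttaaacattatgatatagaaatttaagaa
mRpS2: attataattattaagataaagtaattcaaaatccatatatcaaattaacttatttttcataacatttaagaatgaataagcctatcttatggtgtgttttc
mRpL20: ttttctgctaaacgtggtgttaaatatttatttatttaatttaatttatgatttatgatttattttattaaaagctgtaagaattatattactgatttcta
Only the mRpS23 window of these 5 held an E-box, CACTTG, which started 34 bp after the summit. The other 4 windows held neither motif and were rich in A and T.

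Over the 38 summit windows, 19 (50%) held at least 1 CANNTG, against 37.8% of all 7329 thresholded summits and 37.6% of the 4314 within 1 kb of a coding TSS. The palindromic form CAGCTG was in 5 windows (13.2%), against 5.94% of all thresholded summits and 7.16% of those near a coding TSS. CACGTG was in 2 windows (5.26%), against 1.12% of all thresholded summits. The letters TGCGCA, the core of the site bound by mammalian NRF-1, were in 4 windows (10.5%), against 2.32% of all thresholded summits. The DNA replication-related element (DRE), TATCGATA, was in 0 of the 38 windows and in 1.80% of all thresholded summits. Every motif was searched on both strands, and CAGCTG and CACGTG are also counted as CANNTG. G and C made up 32.0% of the bases in the members' windows and 36.9% in all thresholded summit windows. A match is only a match of letters, and windows of different base content hold such letters at different rates.

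**Figure D2:**
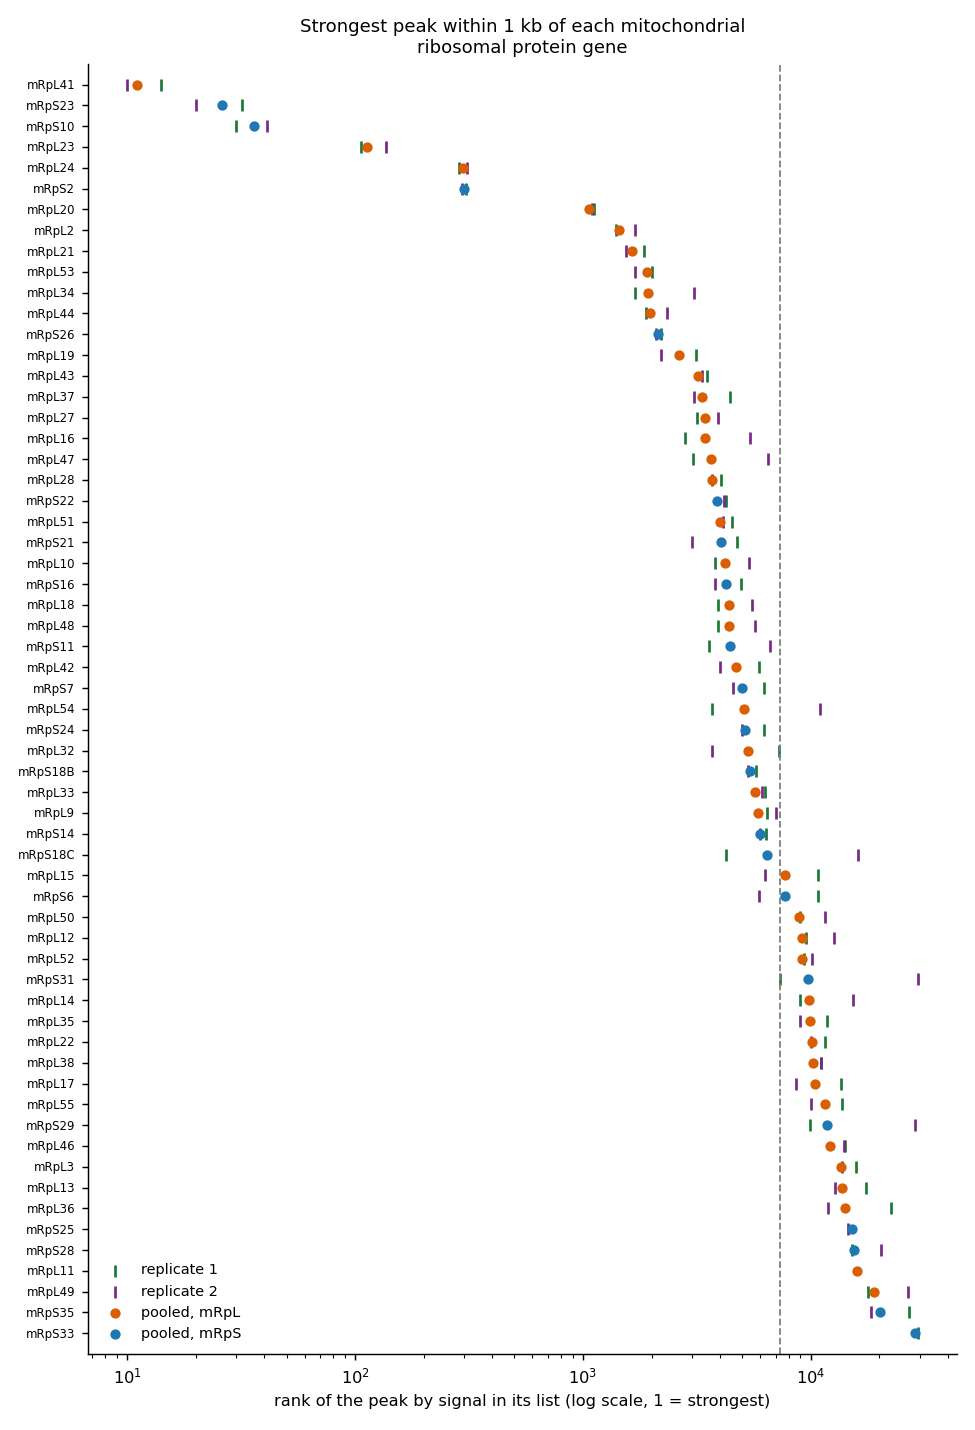
Rank of the strongest peak within 1 kb of each of the 61 members with a pooled summit there (horizontal axis, log scale, 1 is the strongest of 30000), with 1 gene per row. Points are pooled ranks, ticks the ranks of the matched peak in replicates 1 and 2, and the dashed line the last thresholded rank, 7329: 6 genes stand well ahead of the rest, and 38 lie to the left of the line.

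Behind the leading 6, the next members of the 12 strongest were close together. The peaks of mRpL20 (beside Icmt), mRpL2 and mRpL21 (beside rept, which encodes the chromatin factor Reptin) had pooled signals of 394.4, 327.6 and 299.8. Their ranks in replicates 1 and 2 were 1115 and 1091 for mRpL20, 1391 and 1692 for mRpL2, and 1845 and 1546 for mRpL21. The bacterial counterpart of mRpL2 lies by the peptidyl transferase centre. Its summit was the most distant of the set, 751 bp upstream, inside an intron of FoxK. The peaks of mRpL53, mRpL34 and mRpL44 had signals of 275.3, 273.3 and 271.4 (ranks 1906, 1935 and 1960). They stood nearer to AGO1, Dg (dystroglycan) and Snr1 (a subunit of the Brahma chromatin remodelling complex) than to the ribosomal protein gene. Both replicates held a matched peak in all 3 cases, at ranks 2011 and 1691 for mRpL53, 1697 and 3066 for mRpL34, and 1884 and 2348 for mRpL44.

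Most of the other peaks were moderate. The median signal of the 38 members' strongest thresholded peaks was 182.3, against 396.6 for 80 cytoplasmic ribosomal protein genes, 175.0 for 43 nuclear oxidative phosphorylation genes and 202.2 for all 4615 protein-coding genes with a peak. Of the 38, 19 ranked below the upper 3664 of the thresholded list, and 5 in the first 300 (13.2%, against 6.59% of all coding genes with a peak). The last 3 members inside the threshold were mRpL9 (130.4), mRpS14 (128.9) and mRpS18C (122.1). The first 3 outside were mRpL15 (105.9), mRpS6 (105.2) and mRpL50 (93.98). The threshold lay at a pooled signal of 110.1, so the values run on across it without a gap.

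All 38 thresholded peaks were matched by a peak within 150 bp in both replicates. The thresholded list equals the 7329 highest pooled peaks, and the pooled peaks draw on both replicates. Such matches are therefore no independent check of a peak. In 36 of the 38 the matched peak was also among the 7329 highest of both replicates. The exceptions were mRpL54, with rank 3702 in replicate 1 and 10948 in replicate 2, and mRpS18C, with rank 4257 in replicate 1 and 16114 in replicate 2. Both ranked lower in replicate 2. Of the 4615 protein-coding genes with a thresholded summit within 1 kb, 3919 also had a summit there among the highest peaks of both replicates. Across the 38 genes the ranks in the replicates had a Spearman's rho of 0.699, a description over genes that share the same 2 libraries. Of the 23 members with a pooled peak below the threshold, 20 were matched in both replicates, 2 in 1 replicate and 1, mRpL11, in neither.

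The 12 members with no pooled summit within 1 kb were mRpL1, mRpL4, mRpL30, mRpL39, mRpL40, mRpL45, mRpS5, mRpS9, mRpS17, mRpS18A, mRpS30 and mRpS34. They include counterparts of bacterial proteins that lie in the decoding region (mRpS5, mRpS9) and in the mobile stalk beside the exit site (mRpL1). A peak within 1 kb in a replicate's own list was found for 3 of them. These were mRpL39 at rank 5121 in replicate 2, mRpS17 at rank 29715 in replicate 2, and mRpS30 at ranks 28484 in replicate 1 and 10978 in replicate 2. Without read totals, no limit can be set on a peak that was not called.

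The arms carried unequal shares of members with a peak. A thresholded summit was found at 10 of 12 members on 2L, 8 of 12 on 2R, 12 of 21 on 3R, 5 of 17 on 3L and 3 of 11 on X. Over all protein-coding genes the share on these arms ran from 31.4% on 2L to 34.6% on 2R and 3L. The gene with the strongest peak, mRpL41, lies on 2R at 15217024 to 15217617 in dm6, on the minus strand. The intervals of the members' shares are wide, from 51.6 to 97.9% on 2L and from 6.02 to 60.97% on X.

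Most of the genes begin back to back with another gene. A divergent start, here another coding gene on the opposite strand that starts within 500 bp upstream, was present at 53 of 73 members (72.6%; interval 60.9 to 82.4). It was present at 39.8% of cytoplasmic ribosomal protein genes, 42.9% of nuclear oxidative phosphorylation genes and 27.4% of all protein-coding genes. This property comes from the annotation and was not itself used to choose the genes. The set was selected on peaks, however, and over all coding genes these were at 54.4% of genes with a divergent start and 25.1% of those without. The share with a divergent start may therefore not be independent of that selection. The gap between the paired starts had a median of 264 bp and ran from 20 bp at mRpL18 and Taz to 499 bp at mRpL22 and if (inflated, an integrin gene).

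Peaks were found mostly at the paired starts. Of the 53 members with a divergent start, 34 (64.2%; interval 49.8 to 76.9) had a thresholded summit within 1 kb, against 54.4% of all coding genes with a divergent start. Of the 20 without one, 4 (20.0%; interval 5.73 to 43.7) had a summit, against 25.1% of all coding genes without one. Those 4 were mRpL41, mRpL19, mRpL10 and mRpL9, and the strongest peak of the set is among them. Most members also have a single annotated TSS (67 of 73), which leaves fewer positions for a summit to be near. Of these 67, 33 (49.3%) had a thresholded summit, against 25.8% of all coding genes with 1 TSS. With 1 TSS and a divergent start the count was 29 of 48 members (60.4%; interval 45.3 to 74.2), against 47.8% of such coding genes. With 1 TSS and no divergent start it was 4 of 19 members (21.1%; interval 6.05 to 45.6), against 18.2% of such coding genes.

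**Figure D3:**
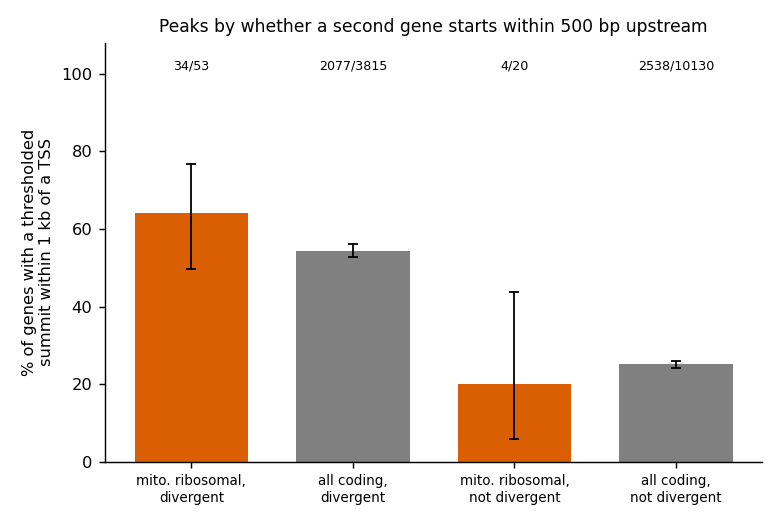
Share of genes in percent (vertical axis) whose TSS had a thresholded summit within 1 kb, for genes with and without a divergent start, with mitochondrial ribosomal protein genes left of all protein-coding genes in each pair. Bars are shares and whiskers 95% Clopper-Pearson intervals: with a divergent start 34 of 53 members stand beside 54.4% of all genes, and without one 4 of 20 beside 25.1%.

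At the members' paired starts, the summit usually lay in the stretch between them. Of the 34 paired members with a thresholded summit, it was between the starts in 24, nearer to the member in 11 and nearer to the partner in 13, and outside in 10. These places were not counted over all coding genes with a divergent start, so they are not shown to be particular to the set. Over all 38 members, another coding gene started nearer to the summit in 20 (52.6%), against 28.6% of all coding genes with a peak. Another coding start was within 200 bp of the summit in 29 (76.3%), against 39.0% of all coding genes with a peak. A summit counted only for its nearest gene left 19 of 73 members (26.0%), against 24.9% of all protein-coding genes. Under that count the set lay at the level of all genes. The partners were diverse, among them Cdk1 (the mitotic kinase, beside mRpS7), Apc2 (beside mRpS24) and trr (a histone methyltransferase gene, beside mRpL16).

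Summits lay upstream of the members' starts. Of the 38, 35 (92.1%) were upstream, against 73.9% of all coding genes with a peak, and 28 (73.7%) were 50 to 300 bp upstream, against 43.9% of all coding genes with a peak. The median position was 131 bp upstream of the TSS (quartiles 181.5 and 78.5 bp upstream). In cytoplasmic ribosomal protein genes the median was 8 bp upstream, and in all coding genes with a peak 110 bp upstream. By annotation, 27 of the 38 summits were intergenic, 9 in a 5′ UTR and 2 in an intron. These classes were not counted over all coding genes with a peak. One member, mRpS22, had 2 thresholded summits within 1 kb, at 293 bp upstream (signal 176.1) and 85 bp upstream (signal 134.7). The share with 2 or more was 2.63% of the members with a peak and 23.6% of all coding genes with a peak. These groups differ in their starts. Of the 38 members with a peak 33 had 1 TSS, against 2642 of the 4615 coding genes with a peak, and each further TSS adds a window. The shares were not computed for genes with 1 TSS alone.

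**Figure D4:**
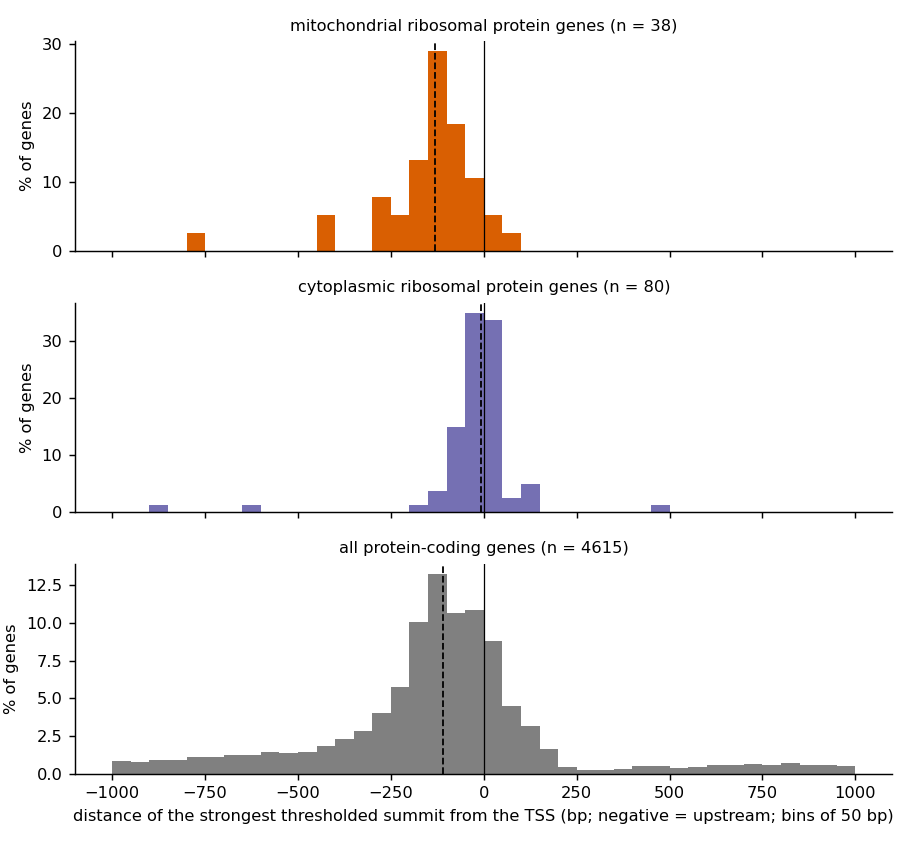
Distance of each gene's strongest thresholded summit from its TSS (horizontal axis, bp, negative is upstream) as the percentage of genes per bin of 50 bp, for 38 mitochondrial ribosomal protein genes, 80 cytoplasmic ribosomal protein genes and 4615 protein-coding genes. Dashed lines mark the medians: 131 bp upstream for the mitochondrial set, 8 bp upstream for the cytoplasmic set and 110 bp upstream for all genes.

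The share with a peak varied among lists of related genes. Cytoplasmic ribosomal protein genes, taken as symbols starting with RpL or RpS plus sta, had a thresholded summit at 80 of 93 (86.0%). Subunit-like genes and paired copies are in this list. Of these, RpL22-like, RpL7-like and RpS10a had no thresholded summit, while RpL24-like, RpLP0-like and RpS10b had one. Nuclear oxidative phosphorylation genes had one at 43 of 91 (47.3%). They were taken as symbols starting with ND-, Sdh, UQCR-, COX or ATPsyn, plus RFeSP, Cyt-c1 and Cyt-c-p. That rule also takes in subunit-like genes. Some of these, such as COX4L, SdhAL and ND-51L2, had no pooled summit within 1 kb, while COX7AL2 and UQCR-6.4L had a thresholded one. All values given for the cytoplasmic and the oxidative phosphorylation lists are those of the mixed lists. No share was computed for the main subunits alone. The list named mitochondrial transcription and RNA factors also holds DNA maintenance genes (mtSSB, PolG1, PolG2 and mtDNA-helicase). It had a thresholded summit at 8 of 16 genes. The strongest were at mtSSB (the single-stranded DNA binding protein, 300.5), mTerf5 (225.5), PolrMT (the mitochondrial RNA polymerase, 178.4) and rswl (171.5). Mitochondrial aminoacyl-tRNA synthetases, which charge the tRNAs, had one at 3 of 15: LeuRS-m (575.1), ArgRS-m (289.9) and AlaRS-m (116.7). Mitochondrial translation factors had one at 2 of 12, GatA (339.0) and mRF1 (158.7). The shares of the synthetases (20.0%; interval 4.33 to 48.1) and the translation factors (16.7%; interval 2.09 to 48.4) rest on few genes, and their differences from the ribosomal protein genes (52.1%) were not tested. The share of all protein-coding genes was 33.1%.

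Many promoters of the set held 1 E-box form, both with and without a peak. In the window from 250 bp before to 50 bp after each gene's start, CAGCTG was present in 40 of the 73 members (54.8%), against 17.7% of all protein-coding genes. It was in 9.68% of cytoplasmic ribosomal protein genes and 23.1% of nuclear oxidative phosphorylation genes. Members with a thresholded summit held it in 22 of 38 (57.9%), and members without one in 18 of 35 (51.4%). Over all coding genes it was in 22% of those with a thresholded summit and 15.6% of those without one. With a divergent start the members' share was 54.7%, against 25.1% of all coding genes with one. Without a divergent start it was 55.0% of members, against 14.9% of all coding genes without one. The motif was in the list searched, but it was singled out after its counts were seen. Of the other E-box forms, CAAGTG was in 23.3% of members and 17.2% of all coding genes, CAACTG in 13.7% of members and 20.9% of all coding genes, and CACGTG in 6.85% of members and 4.24% of all coding genes. The DRE was in 20.5% of member promoters and 9.37% of all promoters, GAGAG in 16.4% of member promoters and 29.8% of all promoters, and TATAAA in 46.6% of member promoters and 45.9% of all promoters.

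The CAGCTG matches in the promoter windows lay mostly near the start site. These windows ended 50 bp after the TSS, so matches further downstream were not searched. The median first base of the 45 matches was 2 bp after the TSS (quartiles 34 bp before and 16 bp after). Of these matches, 39 began no more than 100 bp upstream. In all coding genes the median was 51 bp before the TSS, and 1837 of 2784 matches began no more than 100 bp upstream. These letters are also the core of an E-box element known from computational studies of Drosophila core promoters. Examples of the matches are shown on the gene's strand, in dm6, with 10 bases on each side and CAGCTG in capitals. The first 5 are from members with a thresholded summit and the next 5 from members without one. Positions are chr2L:4973981-4974006 for mRpL28, chr3L:11120847-11120872 for mRpL2, chr2L:4850415-4850440 for mRpS2, chr3R:13381792-13381817 for mRpS21, chr3R:24163510-24163535 for mRpS24, chr3R:11407931-11407956 for mRpL40, chr3R:14511823-14511848 for mRpL11, chr3L:16348066-16348091 for mRpS34, chrX:14582961-14582986 for mRpS25 and chr3L:4364554-4364579 for mRpS6.
mRpL28: cacatacgaaCAGCTGttttttccaa
mRpL2: cgccgcgtaaCAGCTGttttcagccg
mRpS2: cactacccacCAGCTGtttaccaaaa
mRpS21: tgatattcatCAGCTGtttagcagta
mRpS24: tcacgtcaatCAGCTGttgctggacg
mRpL40: gcaacaaaaaCAGCTGttcgtacatt
mRpL11: gcaataccatCAGCTGttgctgcttc
mRpS34: ccagccggcaCAGCTGttcgaccttc
mRpS25: gccgaccgatCAGCTGttcgcattac
mRpS6: ttccttgcatCAGCTGttaacactat
Of the 45 matches, 32 were read with their flanks. The others were 10 on the chromosome arm whose sequence was left out here and 3 too close to the end of the window. Of the 32, 18 were followed by TT and 27 were preceded by A or T. These flanks were not counted over all coding genes, and G and C made up only 35.9% of the bases in the member promoters. The 10 shown were picked for that likeness after the sequences were seen, so they do not compare members with and without a summit. Both groups also held sites not followed by TT, such as mRpL19 with a summit and mRpL35 without one.

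**Figure D5:**
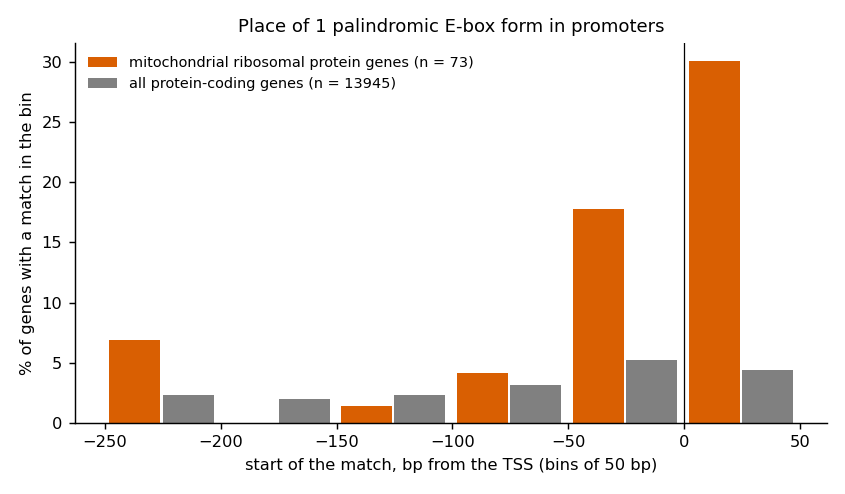
Percentage of genes with a match to CAGCTG that starts in each bin of 50 bp (vertical axis) along the promoter (horizontal axis, bp from the TSS), for 73 mitochondrial ribosomal protein genes beside 13945 protein-coding genes. The members' share is highest in the last bin searched, from the TSS to 49 bp after it, at 30.1%, against 4.37% of all genes. It is next highest in the 50 bp before the TSS, at 17.8% against 5.26%.

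Summits and these sites did not usually coincide. Of the 38 members with a thresholded summit, 21 had a CAGCTG within 250 bp of it, at a median distance of 107.5 bp (range 19.5 to 237.5 bp). In 5 of them, mRpL18, mRpL28, mRpL48, mRpL54 and mRpS18C, the site lay within 50 bp of the summit. The count within 250 bp and the distances were not computed for other thresholded summits. In windows of equal width centred 100 bp to either side of the summit, 28.9% of members held CAGCTG, against 13.8% of thresholded summits near a coding TSS. At 200 bp to either side the shares were 21.1% of members against 10.9%, and at 300 bp 18.4% against 9.78%. These flanks offer 2 windows per summit, so their share is not on the same footing as the 13.2% of members at the summit itself.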

How the data were processed

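Peak lists came from ChIP-seq of GFP-tagged Fer1 in whole embryos, with 2 biological replicates in 1 group. Chromatin was sonicated, with a size range of 200 to 800 bp, per the labels. The authors deposited dm6 lists for each replicate, for the pooled replicates (30000 peaks each) and for peaks past their IDR threshold (7329). Each peak has a signal value computed by the authors, in a unit that is not stated, and a summit. Per the file headers, the lists derive from the replicate alignments and a shared control file, which was not analysed here. Aligner, peak caller and IDR threshold were not given in the sources used here, and read depth is unknown. Ordered by signal, the first 7329 pooled peaks were the same as the thresholded ones. The dm3 lists were not used.

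Genes came from Ensembl release 115 and sequence from RefSeq's copy of Release 6 of the genome, whose arm lengths held all dm6 peaks. Sequences from arm 2R are not shown here, although its genes enter every count of motifs over promoters and summit windows. A gene's peak was its strongest summit within 1 kb of any of its TSSs, and a replicate peak matched if its summit was within 150 bp of the pooled one. Signal was compared within a list only. Of the listed translation factors, mtRF1 and Mtfmt matched no gene, and GatA was matched by a synonym. Named genes were the 12 strongest members, the 3 nearest to the threshold on each side, members with 2 summits or none, up to 8 whose summit lies by a neighbour's start, and up to 4 of each related list. A few others were named after their values were seen. The members and lists were chosen with earlier results of these data known, and no test was run. The alternatives were other windows, 1 TSS per gene, nearest gene only, the upper 3664 thresholded peaks, the pooled list and single replicates. The distance code was tested on simulated data. Python 3.11.15, numpy 2.4.6, pandas 2.3.3, scipy 1.17.1 and matplotlib 3.10.9 were used.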

Additional observations from a re-analysis of the deposited data

How the results depend on the processing

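The share of members with a thresholded summit within 1 kb, 52.05%, was 53.42% with either replicate's highest peaks alone. It was 52.05% with 1 TSS per gene, against 31.2% of all coding genes. A window of 500 bp gave 50.68%, against 29.2% of all coding genes, and 200 bp lowered the share to 42.47%, against 23.3%. For mRpL the share within 1 kb ran from 53.19 to 55.32% with a replicate left out, and for mRpS from 50 to 53.85%. A window of 5 kb gave 73.97% of all members, 76.6% of mRpL and 69.23% of mRpS, against 54.1% of all coding genes. The pooled list gave 83.56% of members, 87.23% of mRpL and 76.92% of mRpS, against 54.4% of all coding genes. Counting a summit only for its nearest gene gave 26.03% of members, 25.53% of mRpL and 26.92% of mRpS, against 24.9% of all coding genes. The upper 3664 thresholded peaks gave 26.03% of members, 31.91% of mRpL and 15.38% of mRpS, against 19.1% of all coding genes. Within 200 bp, 42.47% of members became 19.18% with those upper 3664 peaks, against 12.3% of all coding genes, and 43.84% with either replicate alone. The median rank of the strongest summit, 5104 in the pooled list, was 5591 to 5734 in the single replicates and 5736 with a window of 200 bp. Over all coding genes with a summit within 1 kb, the median was 5719 in the pooled list. For all coding genes it was 5856 in replicate 1 and 5777 in replicate 2, so in the single replicates the members were close to that level. The median distance of 131 bp upstream became −124.5 bp with the nearest summit per gene, and ran from −133 to −130 bp with a replicate left out. The shares fell where the list or the assignment was stricter by construction. No paired analysis was possible because the samples form 1 group. Depth is unknown, so a gene without a peak is not shown to lack Fer1.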
